A study of Mus musculus with 2 samples.

Results

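Prothymosin alpha (Ptma), parathymosin (Ptms), thymosin beta 4 (Tmsb4x) and thymosin beta 10 (Tmsb10) are 4 of the 43346 Ensembl genes quantified in polyadenylated RNA of the embryonic mouse central nervous system. They were chosen by symbol, with their TPM values and junction reads in these libraries known, and are given here with their 15 annotated transcripts and with the splice junction reads inside their spans. Levels and ratios between the libraries are a description and therefore carry no test. Both libraries came from C57BL/6J embryos at day 11.5, from pooled male and female littermates, with no genotype or treatment beyond the strain. They form 1 group of 2 biological replicates, so no contrast between conditions exists, no p-value is given, and an SD over n = 2 measures only the spread between these libraries. RNA over 200 nucleotides was depleted of ribosomal RNA and sequenced strand-specifically from both ends, per the labels.

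Prothymosin alpha and parathymosin are small, disordered, highly acidic nuclear proteins that bind linker histones. Prothymosin alpha is abundant in dividing cells, loosens chromatin and restrains assembly of the apoptosome, and the protease legumain can cut it to release thymosin alpha 1. Beta thymosins are unrelated to them in sequence despite the shared name: they are short cytoplasmic peptides that hold actin monomers in reserve, and in the developing nervous system they are known from migrating and growing neurons.

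The coding sequences of the leading coding transcripts show how the 2 pairs differ. They are shown because, of the 4 genes, the 2 with the larger ratios between the libraries hold the longer purine runs. Within each pair the order was reversed, as Ptma and Tmsb10 had the longer run and the smaller ratio. The sequences were read 5′ to 3′, up to the first 300 bases, from the GENCODE M21 transcripts of mouse build mm10. Runs of at least 12 purines (A or G) are in capitals. Ptma lies on the plus strand at chr1:86526726-86530712, and Ptms on the minus strand at chr6:124913681-124920103, with its leading coding transcript at chr6:124913681-124917946. Tmsb4x lies on the minus strand at chrX:167207093-167209315, and Tmsb10 on the minus strand at chr6:72957347-72958748.
Ptma: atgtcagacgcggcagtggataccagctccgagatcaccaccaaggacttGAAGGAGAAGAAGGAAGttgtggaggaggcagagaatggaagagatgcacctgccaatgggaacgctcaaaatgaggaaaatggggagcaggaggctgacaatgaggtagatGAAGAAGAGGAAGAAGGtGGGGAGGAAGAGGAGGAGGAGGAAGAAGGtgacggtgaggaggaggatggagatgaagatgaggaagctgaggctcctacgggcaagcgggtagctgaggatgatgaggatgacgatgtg
Ptms: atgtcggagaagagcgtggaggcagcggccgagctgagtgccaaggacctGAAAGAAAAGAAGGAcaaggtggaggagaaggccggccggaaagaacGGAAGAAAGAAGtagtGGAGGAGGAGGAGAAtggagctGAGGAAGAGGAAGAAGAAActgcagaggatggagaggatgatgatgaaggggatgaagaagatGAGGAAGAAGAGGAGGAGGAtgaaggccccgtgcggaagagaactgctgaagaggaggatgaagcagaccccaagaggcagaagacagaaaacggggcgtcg
Tmsb4x: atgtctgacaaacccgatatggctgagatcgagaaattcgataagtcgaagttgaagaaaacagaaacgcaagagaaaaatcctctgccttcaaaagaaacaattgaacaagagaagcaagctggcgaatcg
Tmsb10: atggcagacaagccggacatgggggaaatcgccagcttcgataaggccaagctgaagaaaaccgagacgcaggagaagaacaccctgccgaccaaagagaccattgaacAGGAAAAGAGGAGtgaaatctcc
The 333 coding bases of Ptma, stop codon left out, held 3 such runs covering 63 bases, the longest of 29 bases. Ptms held 5 runs covering 81 of 303 bases, the longest of 20 bases. Tmsb4x had none among its 132 coding bases, where the longest purine run was 10 bases, and Tmsb10, also of 132 coding bases, had 1 run of 13 bases. Over the whole coding sequence, purines made up 75.1% in Ptma, 79.5% in Ptms, 65.2% in Tmsb4x and 66.7% in Tmsb10. All 4 genes were thus purine-rich. The median was 52.3% over 14647 coding genes with at least 100 summed counts, of which only 65 reached 65%. Acidic codons (GAA, GAG, GAT or GAC, which encode glutamate and aspartate) made up 53 of the 111 codons of Ptma and 46 of the 101 codons of Ptms. In Tmsb4x they were 11 of 44 codons and in Tmsb10 10 of 44. In a global alignment of coding bases, Tmsb4x and Tmsb10 were identical at 69.7% of 132 columns with no gap, and Ptma and Ptms at 59.0% of 339 columns, 42 of them gaps. Pairs of a prothymosin and a beta thymosin were identical at 24.9% to 28.1% of columns, most of which were gaps.

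Summed expected counts came to 126358805 for replicate 1 and 111687579 for replicate 2, of which Ensembl genes carried 95.3% and 96.7%. Mitochondrial genes made up 1.35% of TPM in replicate 1 and 6.78% in replicate 2, and spike-ins 6.74% and 4.28%. All 6 neural progenitor markers and all 6 markers of postmitotic neurons reached 1 TPM (a level per length and depth, summing to the same total in each library) in both libraries. The libraries differed in other marker lists. The 5 caudal Hox genes summed to 1.77 TPM in replicate 1 and 105 TPM in replicate 2. The 5 muscle markers summed to 250 and 513 TPM, with Myod1 at 0.15 and 19.4 TPM and Myog at 0.40 and 34.2 TPM. Of these 5 markers, 4 were higher in replicate 2, while Tnnt2 went the other way at 147 and 83.7 TPM. Neural progenitor markers summed to 3860 TPM in replicate 1 and 1930 TPM in replicate 2, of which Vim alone had 2643 and 1153 TPM. Erythroid markers summed to 20865 and 29081 TPM. Of these 9, 6 were higher in replicate 2 and 3 in replicate 1 (Klf1, Gata1 and Hba-a1). Macrophage markers summed to 82.8 and 79.6 TPM, and endothelial markers to 213 and 261 TPM. Markers of postmitotic neurons summed to 1640 and 1300 TPM, and mesenchymal markers to 711 TPM in each, with 2 of these 7 at least 2-fold higher in replicate 2 (Pdgfra and Prrx1).

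All 4 genes were among the most abundant messages of the tissue. Ptma had 8229 TPM in replicate 1 and 3966 TPM in replicate 2, a mean of 6098 ± 3014 TPM (SD, n = 2, as for every ± below). That placed it 4th of 43346 genes in replicate 1 and 15th in replicate 2. Ptms had 2925 and 635 TPM, a mean of 1780 ± 1620, and stood 24th and 192nd. The beta thymosins were steadier. Tmsb4x had 2600 and 2162 TPM, a mean of 2381 ± 309, ranks 34 and 50. Tmsb10 had 1750 and 1680 TPM, a mean of 1715 ± 49.7, ranks 63 and 77. The 4 genes together made up 15504 TPM in replicate 1 and 8443 TPM in replicate 2.

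**Figure D1:**
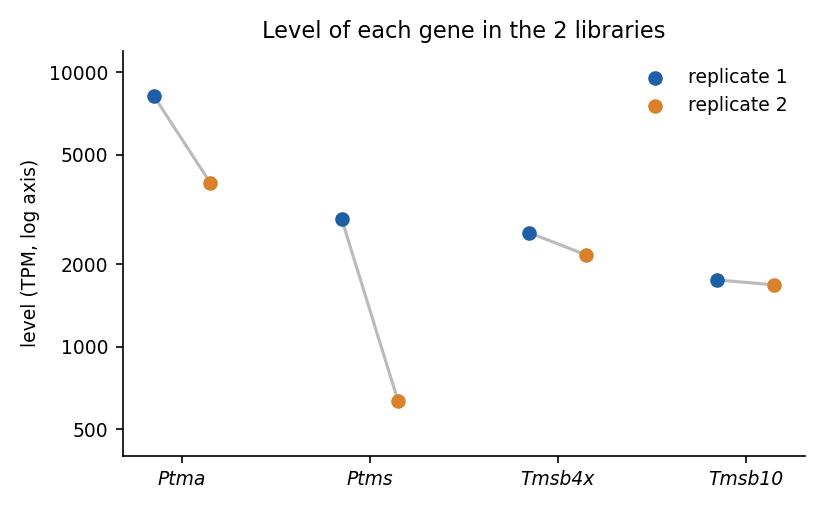
Level of each gene in TPM (log axis), with replicate 1 at the left and replicate 2 at the right of each pair, joined by a line. Ptma and Ptms lie far apart between the libraries (8229 and 3966 TPM, 2925 and 635 TPM), while Tmsb10 (1750 and 1680 TPM) nearly coincides.

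The order of the levels was not the same in both libraries. Ptma was highest in each, at 3.17 times the TPM of Tmsb4x in replicate 1 and 1.83 times in replicate 2. Tmsb4x stood above Tmsb10 in both, at 1.49 and 1.29 times its TPM. Ptms was second in replicate 1, at 1.13 times the TPM of Tmsb4x, and last in replicate 2, at 0.294 times. By the means, Ptms, Tmsb10 and Tmsb4x do not differ beyond the spread of Ptms, whereas Tmsb4x and Tmsb10 are further apart than their own SDs. TPM divides by an effective length, and for Tmsb10 that was 386 bases in replicate 1 and 377 in replicate 2 out of deposited lengths, weighted by the transcript estimates, of 563 and 568 bases. For Ptma it was 1029 and 1021 of 1206 and 1211 bases.

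Between the libraries, 2 of the 4 genes were at least 2-fold apart, both prothymosins and both higher in replicate 1, on counts scaled by trimmed mean of M-values (TMM). The background was 5.05% of 16511 genes at least 2-fold higher in replicate 1, and 6.34% in replicate 2, among genes whose summed counts reached 100. These are 834 and 1047 genes under TMM, against 611 and 1346 when scaled by total counts, and 581 and 1386 when that total left out mitochondrial genes, globins and Gm42418. Among 228 protein-coding genes with a mean of at least 500 TPM the shares were 7.46% and 6.14%. For Ptma the counts were 723663 (replicate 1) and 296926 (replicate 2), a fold of 2.39 (exact 95% binomial interval 2.37 to 2.40, for counting error only) and a log2 ratio of 1.25. Ptms had 159455 and 43990 counts, a fold of 3.55 (3.51 to 3.59) and a log2 ratio of 1.83. Tmsb4x had 131753 and 91731 counts, a fold of 1.41 (1.39 to 1.42), and Tmsb10 had 57787 and 46496 counts, a fold of 1.22 (1.20 to 1.23). With 1 library on each side, no fold has a replicate check. In bulk RNA, fewer cells of a type and less RNA per cell cannot be told apart. All 6 progenitor markers were also higher in replicate 1, 1 of them (Nes) by at least 2-fold in scaled counts. Sox2 had 91.5 TPM in replicate 1 and 56.3 TPM in replicate 2, Vim 2643 and 1153 TPM, and Nes 233 and 72.2 TPM. Nes itself has 23.7% acidic codons, so it belongs to the acidic genes described below. Of the 6 markers of postmitotic neurons, 5 were higher in replicate 1, none by 2-fold, with Gap43 highest at a log2 ratio of 0.95. The part of these markers, or of the mitochondrial and spike-in shares, in the ratios of Ptma and Ptms was not tested.

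Transcript estimates separated Ptms from the other 3 genes. Its leading coding transcript, ENSMUST00000032216 of 5 exons and 1149 bases, carried 35.8% of the gene's TPM in replicate 1 and 97.4% in replicate 2. The rest was nearly all assigned to ENSMUST00000181150, annotated as a retained intron transcript of 629 bases without a coding sequence, at 64.1% and 2.33%. In expected counts the coding transcript had 86992.7 in replicate 1 and 43499.6 in replicate 2, a fold of 1.96 (1.93 to 1.98, counting error only), just under 2-fold. The retained intron transcript had 72412.1 and 475.6 counts, a fold of 149 (136 to 163). The quantifier's own SD for splitting reads between them was 316 counts in replicate 1 and 26.6 in replicate 2.

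**Figure D2:**
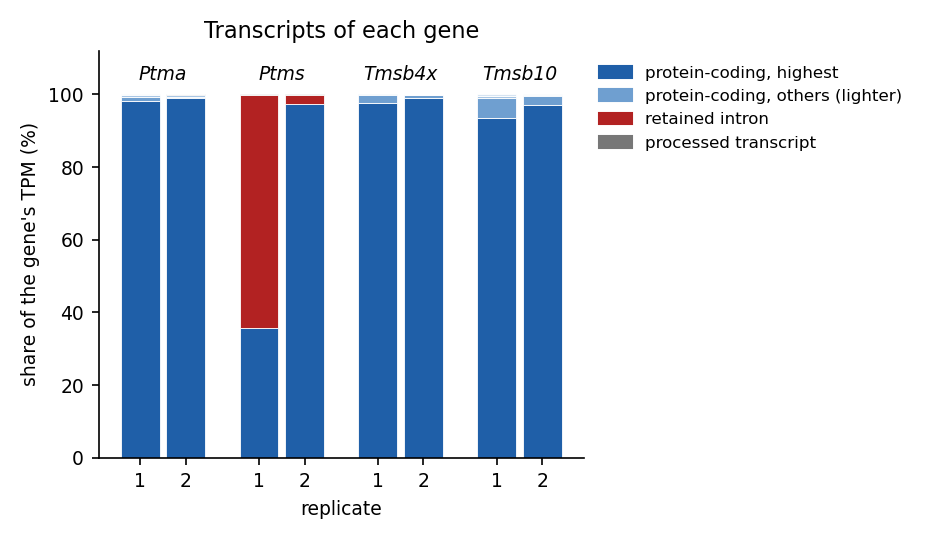
Share of each gene's TPM carried by each annotated transcript (stacked bars, in percent), with replicate 1 at the left and replicate 2 at the right of each pair. The retained intron transcript takes 64.1% of Ptms in replicate 1 and 2.33% in replicate 2, while the leading coding transcript keeps at least 93.4% of the other genes.

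The 2 transcripts of Ptms share 394 bases. The retained intron transcript splices introns 2, 3 and 4 as the coding transcript does, and it differs by beginning inside intron 1, of which it holds 235 bases, and by lacking 755 bases, all 387 of exon 1 and part of exon 5. It therefore holds 258 of the 303 coding bases. The bases that both share are 68.3% purine and the bases it lacks are 38.0% purine. Exons 2, 3 and 4, which both hold in full, are 83.3%, 86.1% and 79.7% purine. Which of the 2 transcripts the reads in shared bases came from was not tested. The deposited length of the gene, weighted by these estimates, was 815 bases in replicate 1 and 1135 in replicate 2. TPM divides by it, and the TPM fold of Ptms was 4.61.

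Minor transcripts of the other genes were small in both libraries. In Ptma, ENSMUST00000045897 carried 98.2% of TPM in replicate 1 and 99.0% in replicate 2. A shorter coding form, ENSMUST00000188533, was given 3420.9 counts in replicate 1 against 217.6 in replicate 2, a fold of 15.4 (13.4 to 17.7), at 1.17% and 0.186% of TPM; it has no base of its own, and the deposited SDs of its counts were 123 and 20.7. In Tmsb4x, ENSMUST00000112172 carried 97.7% and 99.0%, and ENSMUST00000112175, which starts at another first exon, 2.11% and 0.725%. In Tmsb10, ENSMUST00000114050 carried 93.4% and 97.2%, and ENSMUST00000144337, a form of 2 exons, 5.60% and 2.23%. No gene overlapped Ptma, Tmsb4x or Tmsb10 in the annotation. A230083G16Rik, annotated as antisense to Ptms, had 33 counts in replicate 1 and 20 in replicate 2.

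Ptma is also known for its many processed pseudogenes, retrocopies of its messenger RNA. Of 20 annotated copies at least 80% identical to a Ptma transcript, 18 had a row in the tables, 10 were at 0 in both libraries and 6 reached 100 summed counts. Gm9800, on chromosome 14 and 99.1% identical, held the most, with 15642 counts in replicate 1 and 6607 in replicate 2. Gm4617, also 99.1% identical, had 2991 and 601 counts, and Gm9442 had 663 and 84. Gm15538 had 255 and 46 counts, Gm12504 175 and 106, and Gm15466 119 and 4. The log2 ratios of these 6 ran from 0.69 for Gm12504 to 4.70 for Gm15466, all higher in replicate 1, as Ptma itself was. All copies together came to 2.75% of the counts of Ptma in replicate 1 and 2.51% in replicate 2, and with their counts added the log2 ratio of Ptma was 1.26. Near-identical rows share reads, so the counts of single copies are uncertain, and the deposited SD from dividing reads was 39.5 counts for Ptma in replicate 1 and 52.7 in replicate 2. Tmsb10 had 10 copies, of which 5 had a row and only Gm9844, annotated as protein-coding and 99.1% identical, had counts, 195 in replicate 1 and 528 in replicate 2. No copy of Ptms or Tmsb4x met the same limits.

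Splice junction reads give a view that does not depend on dividing reads between the transcripts of a gene. It still depends on how reads were placed, also between Ptma and its near-identical copies, and that was not tested. The deposited junction list lies on mouse build mm9 and gives a read count in each of 2 columns. No label ties either column to a replicate, and they are named here by their position, first or second. Ratios below are first over second, scaled by all reads on 188096 annotated junctions. In Ptma the 4 introns had 2116, 1036, 5512 and 3738 reads in the first column and 741, 187, 674 and 1498 in the second. The ratio was 2.29, 4.43, 6.55 and 2.00 in that order. In Ptms the 4 introns of the coding transcript had 16055, 60053, 223810 and 43558 reads in the first column and 4684, 10261, 17250 and 8691 in the second. There the ratio was 2.75, 4.69, 10.4 and 4.01. Between the introns of Ptms the reads had a 13.9-fold range in the first column and a 3.68-fold range in the second.

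**Figure D3:**
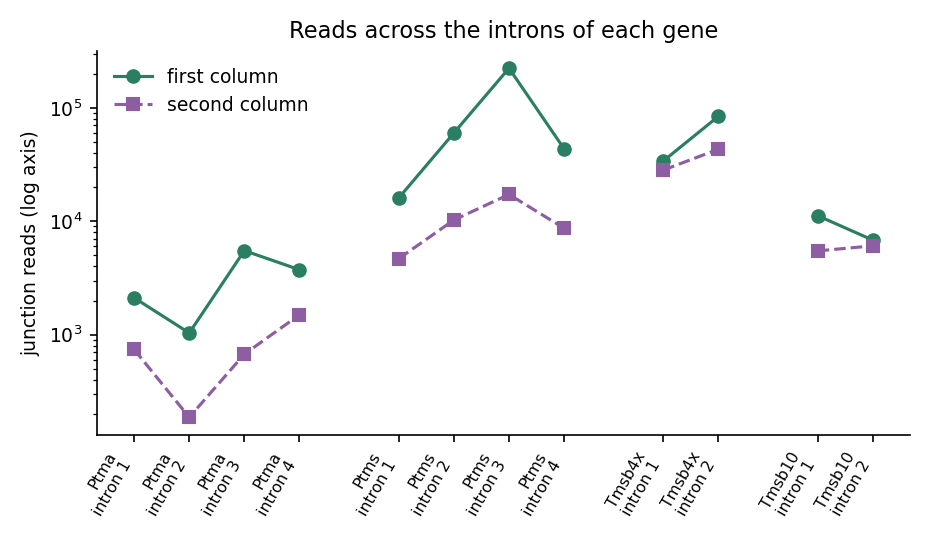
Reads across each intron of the leading coding transcripts (log axis), with the first column as circles and the second as squares. Intron 3 of Ptms stands out at 223810 and 17250 reads, and the columns nearly meet at intron 2 of Tmsb10 (6822 and 6072).

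In Tmsb4x the 2 introns had 34043 and 84350 reads in the first column and 28291 and 43218 in the second, ratios of 0.964 and 1.56. In Tmsb10 they had 11208 and 6822 reads in the first column and 5485 and 6072 in the second, ratios of 1.64 and 0.900. At least 2-fold higher in the first column were 3 of 4 introns of Ptma (intron 4, printed as 2.00, lay just under), 4 of 4 of Ptms and 0 of the 4 of the beta thymosins. Over the 111851 annotated junctions with at least 100 reads, 8.35% were at least 2-fold higher in the first column and 20.7% in the second. The junction of intron 3 of Ptms, at chr6:124864485-124864652 in mm9, carried more reads in the first column than the whole gene had expected counts in either mm10 library. Ptma had more expected counts than Ptms but fewer annotated junction reads. These were 12402 and 3100 (first and second column) for Ptma, and 343478 and 40891 for Ptms. Junction reads and expected counts are different units on different builds and annotations, so these values do not lie on 1 scale. The first junctions of the other Tmsb4x forms had 15 and 11 reads in the first column and 24 and 15 in the second. Junctions outside the annotation took 5.59% of the reads inside Ptma in the first column and 6.32% in the second, and 0.961% and 1.42% inside Ptms. The strongest of these in Ptma joined exon 2 straight to exon 4, with 289 reads in the first column and 30 in the second. In Ptms the strongest shared an end with intron 3 and had 1500 and 129 reads.

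The junctions with high ratios lay in purine-rich stretches. In the 100 spliced bases around each junction, 50 on each side, purines made up 68.0%, 74.0%, 84.0% and 70% at introns 1 to 4 of Ptma and 74.0%, 85%, 80% and 75.0% at those of Ptms. The same value was 46.0% and 67.0% in Tmsb4x and 67.0% and 68.0% in Tmsb10. Across all 107589 junctions with sequence, the share at least 2-fold higher in the first column was 3.45% where purines were under 50%, 6.72% from 50% to under 60%, 17.9% from 60% to under 70%, 47.6% from 70% to under 80% and 81.3% at 80% or more. These bins held 31183, 56520, 18218, 1577 and 91 junctions. The share at least 2-fold higher in the second column ran the other way, from 30.8% in the lowest bin to 1.10% in the highest. All these junctions come from the same pair of columns, neighbouring junctions share reads, and the split by purines was chosen after the values were seen.

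The mm9 gene values, in RPKM (reads scaled by model length and library depth) and likewise in unlabelled columns, put the genes in another order. Tmsb4x was highest, at 327 in the first column and 265 in the second. Ptma had 91.5 and 151, Ptms 115 and 60.1, and Tmsb10 104 and 67.2. Ptma was thus higher in the second column, while its annotated junction reads were higher in the first, at a scaled log2 ratio of 1.68. Ptms, Tmsb4x and Tmsb10 were higher in the first column by both measures. No label says that the first column is the same library in both, and the cause was not tested. By the mean, Tmsb4x ranked 23rd of 37310 genes, against 33rd in the mm10 tables, and Ptma ranked 126th, against 5th. Ptms ranked 182nd and Tmsb10 187th, against 66th and 72nd. For Tmsb4x the mm9 transcript values favoured ENSMUST00000112176, at 81.1% of the gene in the first column and 65.4% in the second, a form that held 0.209% in replicate 1 and 0.238% in replicate 2 of the mm10 tables. Its own first junction had only 11 and 15 reads.

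The partners of prothymosin alpha and the apoptosome genes were set beside it as a list of 20. In replicate 1, 6 of the 20 were at least 2-fold higher and in replicate 2 none, beside 5.05% and 6.34% of all 16511 genes and 7.46% and 6.14% of the 228 abundant coding genes. The list's median log2 ratio was 0.64, against 0.01 over all genes with at least 100 counts. Together they made up 19759 TPM in replicate 1 and 7268 TPM in replicate 2. On the log2(TPM + 1) scale the median was 0.62. The 6 were the acidic histone chaperones Anp32a, Anp32b and Anp32e, the nucleolar protein Ncl, and the DNA-bending proteins Hmgb1 and Hmgb2. Anp32a, which like prothymosin alpha acts on the apoptosome, had 2701 TPM in replicate 1 and 741 TPM in replicate 2, a log2 ratio in counts of 1.64. Anp32b had 643 and 181 TPM (log2 2.03), and Anp32e 2070 and 307 TPM (log2 1.86). Ncl had 1410 and 321 TPM (log2 1.67), Hmgb1 2392 and 928 TPM (log2 1.16) and Hmgb2 730 and 297 TPM (log2 1.5). The members with the highest means were Npm1, another nucleolar histone chaperone, at 3093 and 1656 TPM, Hmgn2, a nucleosome-binding protein, at 3636 and 1102 TPM, and Anp32a. Set, a chaperone of linker histones, had 1460 and 571 TPM and a log2 ratio of 0.88. Of the 20 listed genes, 14 lay above 0 and 6 below. Among those below were Keap1, Ep300 and Crebbp, with log2 ratios of -0.11, -0.33 and -0.54. Binding to prothymosin alpha was not measured here.

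The stress and apoptosis members of that list differed less between the libraries. Keap1, the sensor that prothymosin alpha is known to bind in human cells, had 20.6 TPM in replicate 1 and 28.2 TPM in replicate 2. Nfe2l2, the factor that Keap1 holds in check, was lowest of the list at 13 and 19.2 TPM. Legumain (Lgmn) had 35.2 and 34.8 TPM. Of the apoptosome itself, Apaf1 had 32.9 and 29.4 TPM, Casp9 16.9 and 17.7 TPM, and Cycs 44.1 and 42.3 TPM. These 6 genes stayed within a log2 ratio of 0.35 in either direction, with Nfe2l2 furthest at -0.35.

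Of the 19 actin partners, none was at least 2-fold apart in either direction, beside 11.4% of all 16511 genes. A list of 19 is too small to set apart from that share. Above 0 were 6 of the actin partners and below it 13. Their median log2 ratio was -0.20 in counts and -0.42 on the log2(TPM + 1) scale. Actb had 3183 TPM in replicate 1 and 3532 TPM in replicate 2, and Actg1 1019 and 1765 TPM. Tmsb4x and Tmsb10 together thus had 4350 TPM in replicate 1 and 3842 TPM in replicate 2 beside 4202 and 5297 TPM of these 2 actins. Cfl1, the cofilin that severs filaments, had 1553 and 1206 TPM, and profilin 1 (Pfn1), which carries monomers to growing ends, 525 and 701 TPM. The lowest was Mrtfb, a coactivator of Srf that free actin monomers hold inactive, at 5.11 and 9.51 TPM. Among 5 genes of beta thymosin processing and adhesion none was 2-fold apart, and 5 genes are too few to set apart from the same 11.4%. Ilk, a kinase-like adhesion protein that binds thymosin beta 4, had 135 and 162 TPM, Prep, the peptidase that helps to release its N-terminal tetrapeptide, 39.5 and 57.8 TPM, and Parva 33.9 and 43.0 TPM. Ace, which degrades that tetrapeptide, was lowest at 0.73 and 0.71 TPM.

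The other beta thymosin genes were expressed at far lower levels. Tmsb15b2 had 159 counts in replicate 1 and 370 in replicate 2 (6.82 and 19.4 TPM), and Tmsb15b1 83 and 187 counts (3.70 and 10.2 TPM). Both were at least 2-fold higher in replicate 2, by log2 ratios of -1.25 and -1.20. Tmsb15l had 220 and 406 counts (12.4 and 11.4 TPM), a log2 ratio of -0.91 in counts and 0.11 on the log2(TPM + 1) scale, so its direction depends on the unit. Tmsb15a had 0 and 1 counts. None of the 6 listed beta thymosin genes was at least 2-fold higher in replicate 1, beside 5.05% of all 16511 genes. A list of 6 is too small to set apart from that share. In replicate 2 the share of all genes was 6.34%.

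**Figure D4:**
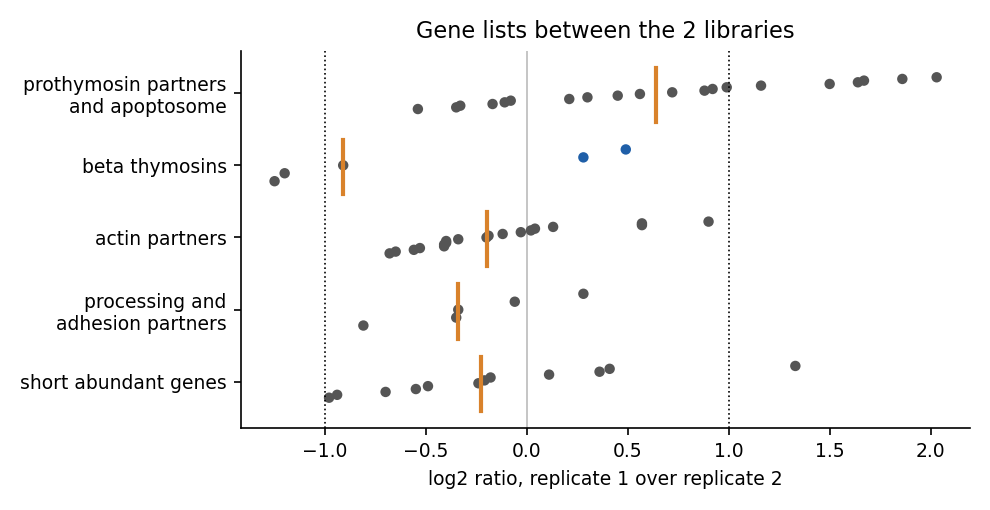
Log2 ratio of replicate 1 over replicate 2 (horizontal axis, TMM-scaled counts) for each gene of 5 lists, with list medians as orange bars, 2-fold limits dotted, and Tmsb4x and Tmsb10 in blue. The list of prothymosin partners and apoptosome genes has a median of 0.64, with 14 genes above 0 and 6 below. The actin partners centre left of 0 (median -0.20).

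Other short, abundant messages lay on both sides of 0. Of 12 such coding genes, 8 were below 0 and 4 above, with a median log2 ratio of -0.22. In replicate 1, 1 was at least 2-fold higher and in replicate 2 none, beside 5.05% and 6.34% of all 16511 genes. A list of 12 is too small to set apart from these shares. The gene at least 2-fold higher was Atp5e, a subunit of ATP synthase, with 846 TPM in replicate 1 and 392 TPM in replicate 2. The highest were Rps12 at 4212 and 5800 TPM, Rplp1 at 3552 and 6186 TPM and Rpl41 at 4163 and 3444 TPM, and the lowest was Sec61g at 20.3 and 48.6 TPM.

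Ptma, Ptms and several genes of the partner list have strongly acidic coding sequences. Among 14647 protein-coding genes with a coding sequence and at least 100 summed counts, the median share of acidic codons was 11.8%. Anp32e had the highest share, 55.5%, followed by Ptma at 47.7%, Ptms at 45.5% and Anp32b at 39.7%. Each share is that of the gene's coding transcript with the highest TPM over both libraries, and other transcripts were not used. For Anp32e that transcript has 137 codons, against 272 for Anp32b and 247 for Anp32a, so its rank holds for that transcript only. Anp32a ranked 8th at 35.6%, Tmsb4x 63rd at 25% and Tmsb10 126th at 22.7%. Of the 328 genes with at least 20% acidic codons, 23.8% were higher in replicate 1 by at least 2-fold, and 3.35% in replicate 2. The first share was 16.5% when scaled by total counts or on log2(TPM + 1), and 15.5% when the total left out mitochondrial genes, globins and Gm42418. Of the 14319 below 20%, 3.45% were higher in replicate 1 and 5.58% in replicate 2. Without the 4 genes and the listed prothymosin partners, 315 genes remained at or above 20%. Under TMM, 22.2% of them were at least 2-fold higher in replicate 1.

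**Figure D5:**
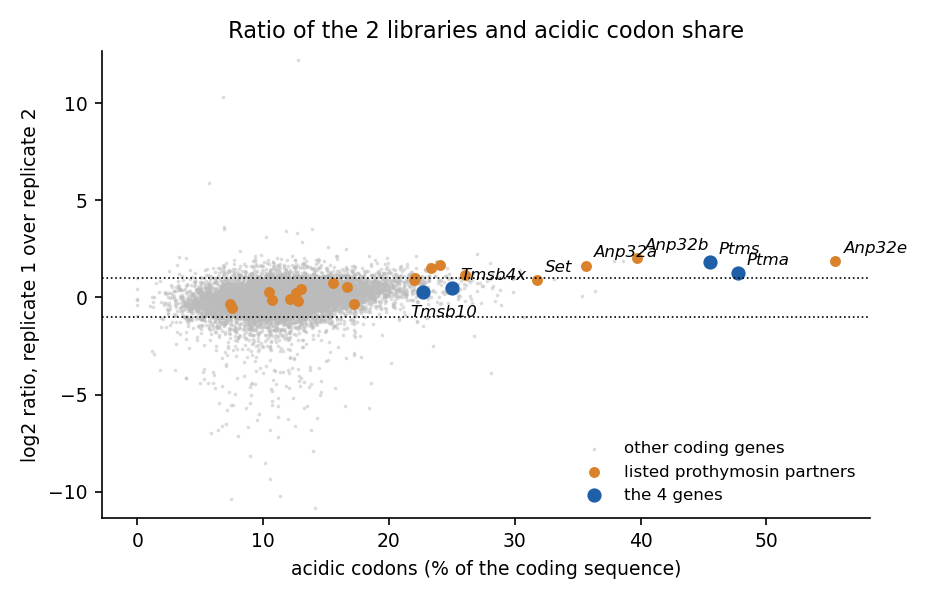
Log2 ratio of replicate 1 over replicate 2 (vertical axis, TMM-scaled counts) against the share of acidic codons (horizontal axis, percent) for 14647 coding genes, with dotted lines at 2-fold. Ptma and Ptms sit at 47.7% and 45.5% beside the Anp32 genes, while Tmsb4x and Tmsb10 lie lower on both axes.

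The pairs also differed in how acidic codons cluster. The richest window of 20 codons held 17 acidic codons in Ptma and 18 in Ptms, but 6 in Tmsb4x and 5 in Tmsb10. Of 553 genes whose richest window held at least 13, 14.3% were at least 2-fold higher in replicate 1, against 3.32% of the 6508 genes below 7. By GC content, Ptma (53.8%), Ptms (54.8%) and Tmsb10 (52.3%) fell in the same range of 50% to under 55%, where 3.15% of 3995 genes were at least 2-fold higher in replicate 1. That share was 8.78% of the 2051 genes with at least 60% GC. Codon, purine and GC shares are tied to each other, all values come from the same 2 libraries, and what links sequence and ratio was not tested.

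Genes nearest in level were ranked by distance in log2 TPM over the 2 replicates. For Ptms the nearest 3 were mt-Nd6 at 2948 TPM in replicate 1 and 665 TPM in replicate 2, Anp32a, and Hmgb1, at distances of 0.07, 0.25 and 0.62. Ptma had no close neighbour, the nearest being Hba-a1 at a distance of 0.65 with 5229 and 3895 TPM, then Tuba1a and Rpl41. Around Tmsb4x lay Tubb2b (2490 and 2002 TPM), Rpl38 and Rps14, at distances of 0.13 to 0.17. Near Tmsb10 lay the ribosomal protein genes Rpl7 (1593 and 1683 TPM) and Rps27a, at 0.14 and 0.16.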

How the data were processed

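Expected counts, TPM, transcript lengths and each count's posterior SD were deposited by the authors for each library (build mm10, annotation M4), per the file headers and deposited notes. The authors also deposited mm9 RPKM values on Ensembl 65 models and mm9 junction read counts. Which aligner and quantifier made them is not given in the sources used here.

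Symbols, positions, transcript types and sequences came from GENCODE M21. Expected counts were rounded, and TMM scaling used edgeR 4.0.16, prior count 0.5. Fold intervals are exact 95% binomial intervals. They cover counting error only. The ratio script was tested on simulated data. Copies were sought with blastn 2.17.0 (at least 80% identity over at least 80% of the shorter sequence and 100 bases), and coding sequences were aligned in Biopython 1.88. Transcript shares were recomputed from TPM.

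The members and gene lists were chosen with earlier results of these data known. From the gene lists the text names the 3 genes with the highest mean TPM, the lowest and any at least 2-fold apart. Set, Keap1, Ep300, Crebbp, Lgmn, Apaf1, Casp9, Cycs, Pfn1 and the cell type markers were named after their values were seen. So were the splits by purines, acidic codons and GC. Alternatives covered scaling, unit, prior count, filter, fold, copies, transcripts and leaving out a replicate. Protein sequences were not used here. One gene near Tmsb10 in level is not reported here.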

Additional observations from a re-analysis of the deposited data

How the results depend on the processing

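No paired analysis was possible because the 2 libraries form 1 group, with no second group to pair them with. The log2 ratio of Ptma ranged from 1.05 to 1.27 and that of Ptms from 0.97 to 2.20. The lowest Ptms value, 0.97, came from its protein-coding transcripts alone and lies under 2-fold; that alternative leaves out the retained intron transcript by construction. In mm10, the number of the 4 genes at least 2-fold apart was 2 under each scaling, unit and prior tried, and at 1.5-fold. In mm9 RPKM, with unlabelled columns, the higher over the lower value was 1.65 for Ptma and 1.91 for Ptms, both under 2-fold. It was 1.23 for Tmsb4x and 1.54 for Tmsb10. Over the 15036 genes with a mean of at least 1 CPM, scaling by total counts moved the median log2 ratio to -0.11, and log2(TPM + 1) to -0.12, against 0.02 under TMM.

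The mean level of Tmsb10, 1715 TPM, became 1901 TPM over nuclear genes and 1567 per full length, both beyond its small spread, and the share of the leading Ptma transcript became 99.3% in expected counts. On mm9 RPKM, Ptma ranked 126th and Tmsb10 187th; the cause was not tested. With 2 libraries, leaving out a replicate only returns the other library's value, which says nothing of stability: it gave levels of 3966 to 8229 TPM for Ptma and 635 to 2925 TPM for Ptms, and leading transcript shares of 35.8% to 97.4% for Ptms. All genes at least 2-fold higher numbered 834 in replicate 1 and 1047 in replicate 2, against 457 and 688 on log2(TPM + 1) and 2578 and 4455 with no filter, where low counts enter. Alternatives chosen after the data were seen gave 6 to 8 prothymosin partners at least 2-fold higher in replicate 1, 15.5% of acidic genes higher when the total left out mitochondrial genes, globins and Gm42418 (23.8% under TMM), and 4 rather than 7 copies with at least 100 counts at 95% identity. Depth does not limit the members' counts; the number of libraries, 2, does.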

Other observations

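Outside the lists, other genes with very acidic coding sequences showed values like those of the prothymosins. Sem1, a small acidic subunit of the proteasome lid, had 38.6% acidic codons, with 420 TPM in replicate 1 and 132 TPM in replicate 2 (log2 ratio in counts 1.87). Hmgn5, a nucleosome-binding protein with a long acidic tail, had 37.9%, with 103 and 32.2 TPM (log2 1.88). Others did not: Anapc15 at 36.4% had 128 and 106 TPM (log2 0.33), and Nucks1 at 27.4% had 80.6 TPM in replicate 1 and 102 TPM in replicate 2 (log2 -0.28). Tnnc2, a fast muscle troponin at 28.1%, had 1.41 and 24.9 TPM, a log2 ratio of -3.91. These genes were chosen after their values were seen.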
